A study of Homo sapiens with 16 samples.

Results

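The 10 genes described here encode the core of the human RNA interference machinery: the Argonaute genes AGO1, AGO2, AGO3 and AGO4, the nuclear processing pair DROSHA and DGCR8, the cytoplasmic processing pair DICER1 and TARBP2, and the effector scaffolds TNRC6A and TNRC6B. They were chosen by name, and all 10 were found by the symbol of their Ensembl identifier among the 58302 gene identifiers of the count files. HEK293, an established human embryonic kidney cell line, was transfected with a small interfering RNA (siRNA) against Gemin5 (siRNAG5) or served as control (Ctrl). Polyadenylated RNA was sequenced both from the whole cytoplasm (Input) and from the polysomal fractions of a sucrose gradient (Polysome), with 4 libraries in each of the groups Input Ctrl, Input siRNAG5, Polysome Ctrl and Polysome siRNAG5. The labels call the Ctrl cells untreated, whereas the treatment protocol and the methods describe a control siRNA, so whether the Ctrl cells received a short duplex was not settled. This matters for genes of a pathway that takes up such duplexes, and the presence of an siRNA cannot be told apart from the loss of Gemin5 if the Ctrl cells received none.

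In RNA interference, a primary microRNA (miRNA) is cropped in the nucleus by the Microprocessor, formed by the nuclease DROSHA and its RNA-binding partner DGCR8, and the resulting hairpin is cut in the cytoplasm by the nuclease DICER1 with its partner TARBP2 (TRBP). One strand of the duplex is kept by an Argonaute protein, which finds target mRNAs mainly through the seed, the bases that follow the first base of the strand. Argonaute binds TNRC6 (GW182) proteins, which recruit the deadenylation complexes that shorten the poly(A) tail of the target, while AGO2 also cuts fully matched targets itself, the activity on which experimental silencing by siRNA relies.

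The oligonucleotides that enter this pathway in the experiment are shown first, because silencing by siRNA relies on AGO2, which is among these genes. The sense strands are given as ordered, each followed by the strand complementary to its first 19 bases, with the seed (bases 2 to 8 of that strand) in capitals.
Gemin5 siRNA, sense: ccuuaaucaagaagagaaauu
Gemin5 siRNA, antisense: uUUCUCUUcuugauuaagg
control siRNA, sense: auguauuggccuguauuaguu
control siRNA, antisense: cUAAUACAggccaauacau
The 19 bases of the Gemin5 siRNA matched the coding part of exon 18 of the 28 exons of GEMIN5 (GRCh38, chr5:154904608-154904626, minus strand). Only the canonical transcript of each gene was searched. No gene other than GEMIN5 held the whole match there, and hence none of the 10 RNA interference genes did.

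The letters AAGAGAA, which pair with the Gemin5 seed, were counted on the mRNA strand in the annotated 3′ untranslated region (UTR) of the canonical transcript of each gene. They occurred 4 times in AGO1, 4 times in TNRC6B, 3 times in AGO3 and 2 times in AGO2, once each in AGO4, DICER1 and DGCR8, and in none of DROSHA, TARBP2 and TNRC6A. These long 3′ UTRs (66.1 kb summed) thus held 0.242 sites per kb, against 0.180 per kb over the 12410 tested genes with a 3′ UTR, of which 25.3% held at least 1 site. The letters TGTATTA, which pair with the control seed, occurred at 0.106 per kb in the 10 genes and 0.134 per kb over all. A match of this length describes the sequence and says nothing of binding.

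DGCR8 mRNA also carries substrates of the machinery it encodes: the annotated hairpins of MIR3618 and MIR1306 lie in its exons on the same strand. The RefSeq mature sequences (GRCh38.p14) are printed because their hairpins lie in the annotated exons of DGCR8, with the seed in capitals.
hsa-miR-3618 (chr22:20085797-20085818): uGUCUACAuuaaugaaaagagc
hsa-miR-1306-5p (chr22:20086072-20086093): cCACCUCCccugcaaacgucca
hsa-miR-1306-3p (chr22:20086112-20086129): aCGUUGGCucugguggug
The 3 seeds differ from each other. Neither hairpin gene had a read of its own in any of the 16 libraries. Reads shared between genes were left out of the counts, and both hairpins lie in exons of DGCR8. The absence of reads therefore cannot show whether RNA of the hairpins was present. The libraries were made from polyadenylated RNA, so mature miRNAs were not measured.

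The libraries held 11145324 to 24511299 reads assigned to genes. GEMIN5 itself fell by 1.40 on the log2 scale in Input (SE 0.12) and by 1.44 in Polysome (SE 0.21), with every siRNAG5 library below every Ctrl library in both fractions. Of the 5 HEK293 marker genes, NEFM, NEFL, PAX2 and LIN28B had reads in every library, while SOX11 had at most 1. Summed reads of 16 liver genes such as ALB, which HEK293 cells hardly express, reached 81.2 to 168 CPM (reads of a gene scaled to the normalised total of the library) in the Polysome Ctrl libraries and 132 and 151 CPM in Input Ctrl replicates 4 and 3, against 0.453 to 2.68 CPM in the other 10 libraries. On the second principal component of the Polysome libraries, Ctrl replicate 1 and siRNAG5 replicates 1 and 4 lay apart from the other 5. Calls that changed without these libraries are given beside the results. In Polysome, all Ctrl libraries and none of the siRNAG5 libraries carried the liver reads, so that what brought these reads and the treatment cannot be told apart in that comparison. Where an mRNA level differs, more or fewer cells with the RNA and more or less RNA per cell cannot be told apart. Levels are relative to the normalised total of a library, its counted reads rescaled by a normalisation factor (TMM). Differences between groups can therefore depend on these factors.

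The 10 genes spanned a wide range of abundance. Per length (CPM per kb of merged exons), TARBP2 stood highest in Input Ctrl at 24.9 ± 1.79 (SD, n = 4), followed by DROSHA at 3.11 ± 0.072, DGCR8 at 0.961 ± 0.10 and AGO2 at 0.719 ± 0.043. No library of any of these genes overlapped with those of the next in the order, so these differences in level were larger than the spread between libraries. Below them, AGO3 at 0.418 ± 0.074, AGO4 at 0.304 ± 0.021, AGO1 at 0.276 ± 0.023, TNRC6B at 0.217 ± 0.039, DICER1 at 0.190 ± 0.029 and TNRC6A at 0.164 ± 0.077 each overlapped with their neighbour. The mRNA of the Dicer partner TARBP2 thus exceeded that of its nuclease in every group, whereas in the Microprocessor the nuclease DROSHA exceeded its partner DGCR8 by a factor of 3.23 in Input Ctrl. These levels depended on the length used. By the longest transcript of each gene, TARBP2 was at 55.0, the ratio of TARBP2 to DROSHA was 12.3 in place of 8.02, DICER1 moved up to rank 6 at 0.332 and TNRC6A to rank 9 at 0.250, while the first 5 genes kept their order.

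**Figure D1:**
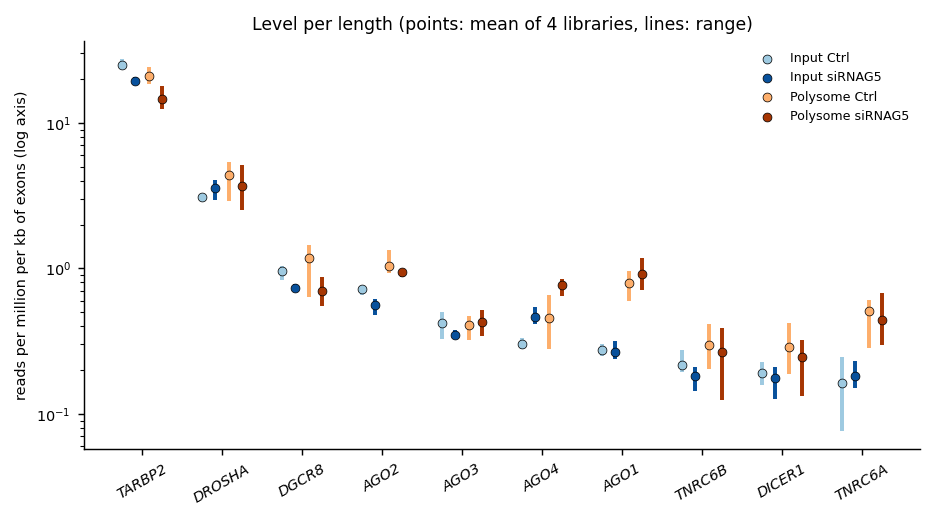
Level per length of the 10 genes in the 4 groups, in CPM per kb of merged exons on a log axis. Points are means of 4 libraries and lines the range, and TARBP2 lies highest in every group, with 24.9 in Input Ctrl. In Input Ctrl the genes from AGO3 downward each overlap with the next.

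In Input siRNAG5 the order kept TARBP2 (19.4 ± 0.99), DROSHA (3.60 ± 0.48), DGCR8 (0.739 ± 0.039) and AGO2 (0.560 ± 0.065) at the top, and AGO4 (0.465 ± 0.057) came next, in place of AGO3. The libraries of AGO2 and AGO4 overlapped there, while those of AGO4 lay above those of AGO3. In Polysome siRNAG5, the levels per length of AGO2 (0.938 ± 0.053), AGO1 (0.918 ± 0.19), AGO4 (0.767 ± 0.087) and DGCR8 (0.699 ± 0.17) formed a chain in which each neighbour overlapped with the next.

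The Argonaute mRNAs can be read as shares of their own sum per length, which does not depend on the scaling between libraries. AGO2 made up 41.9% ± 2.99 (SD, n = 4) of the sum in Input Ctrl, AGO3 24.3% ± 3.88, AGO4 17.7% ± 1.42 and AGO1 16.1% ± 1.43. In Input siRNAG5 the share of AGO4 was 28.3% ± 1.32, with a range of 27.1 to 30.2% that lay above the 16.2 to 19.6% of Input Ctrl, and the share of AGO2 was 34.0% ± 1.94. In Polysome Ctrl, AGO1 held 29.1% ± 3.21 of the sum. Between treatments, the library ranges did not overlap for AGO4 and AGO2 in Input and for AGO4 in Polysome. The share of AGO4 in Polysome was 12.3 to 22.8% in Ctrl and 23.9 to 26.6% in siRNAG5. Between fractions, the ranges did not overlap for AGO1 in Ctrl and for AGO1, AGO3 and AGO4 in siRNAG5. All other such ranges overlapped, and shares that sum to a whole cannot all move independently. AGO1, AGO3 and AGO4 are neighbours on chromosome 1 in the order AGO4 (chr1:35808016-35857890), AGO1 (chr1:35869808-35930532) and AGO3 (chr1:35930718-36072500), all on the plus strand of GRCh38. The coding sequences of the 4 Argonaute genes were identical at 70.6 to 75.4% of aligned bases, and reads that aligned to several places were not counted.

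**Figure D2:**
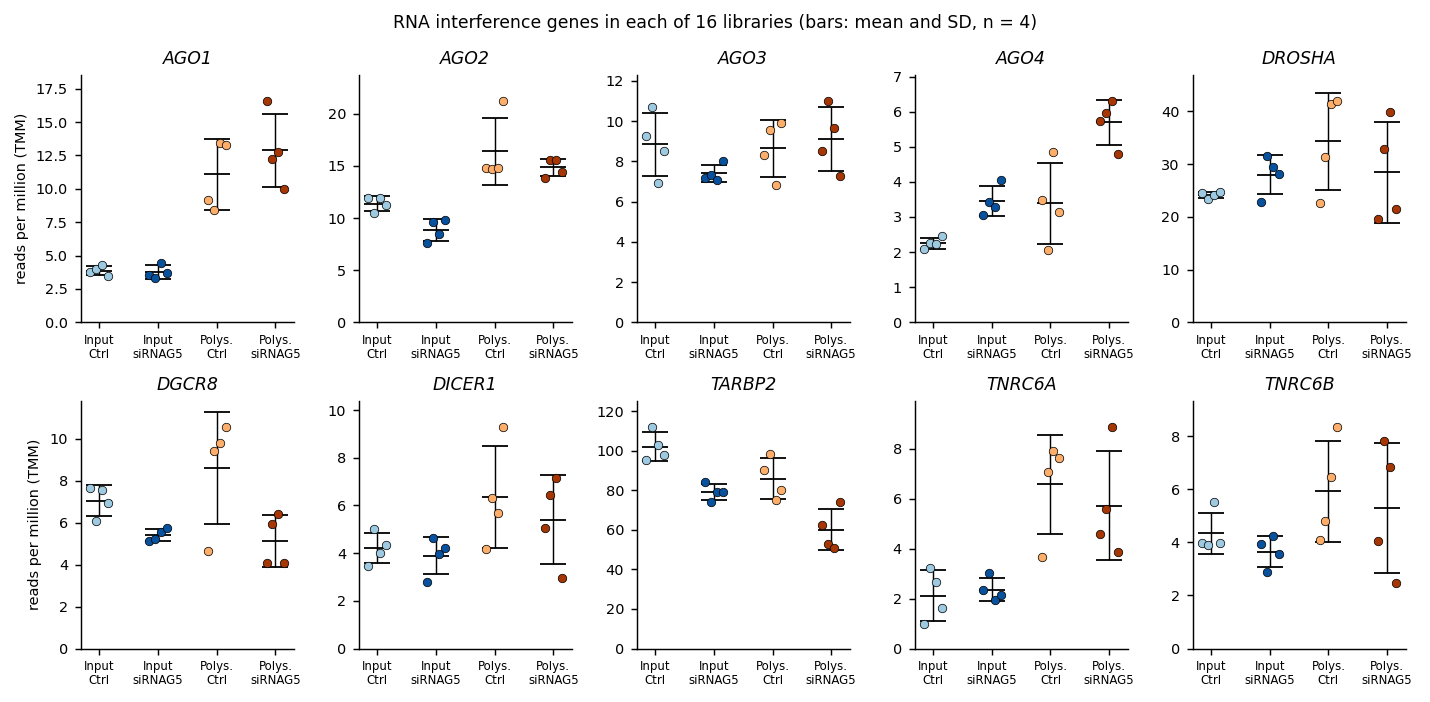
Normalised read counts (CPM, linear axes from 0) of each gene in the 16 libraries, with a point per library and bars for mean and SD of 4 libraries. AGO4 in Input lies at 2.09 to 2.46 CPM in Ctrl and 3.06 to 4.05 CPM in siRNAG5, and DROSHA, DGCR8, DICER1, TNRC6A and TNRC6B spread widely within the Polysome groups.

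The effect of Gemin5 silencing on the cytoplasmic level of these mRNAs was examined in Input. AGO4 was the only RNA interference gene of the 10 that passed both thresholds used here, an adjusted p under 0.05 and an absolute log2 FC above 0.5, and it was higher in siRNAG5. Over all 14134 genes tested, 10.5% were called higher and 6.02% lower, 16.5% in either direction, so 1 of 10 was near the background. With the adjusted p alone, 4 of the 10 passed, AGO4 higher and AGO2, DGCR8 and TARBP2 lower, against 37% of all genes tested. The median log2 FC of the 10 genes was -0.17, beside 0.04 over all genes tested, with 3 positive and 7 negative.

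AGO4 (ENSG00000134698), an Argonaute that binds guide strands and lacks the cleavage activity of AGO2, was counted at 2.09, 2.24, 2.22 and 2.46 CPM in Input Ctrl replicates 1 to 4 and at 3.06, 3.42, 3.28 and 4.05 CPM in Input siRNAG5. All siRNAG5 libraries were above all Ctrl libraries. The log2 FC was 0.63 (SE 0.19) with an adjusted p of 0.0096 (edgeR's quasi-likelihood test, Benjamini-Hochberg), on 21 to 77 reads per library. The call held in all 8 fits that left out a library, with a log2 FC of 0.54 to 0.68, and without the Input Ctrl libraries that carry liver reads (log2 FC 0.68, adjusted p = 0.040, edgeR). It was lost when all 16 libraries shared a fit (log2 FC 0.62, adjusted p = 0.063, edgeR).

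TARBP2 (ENSG00000139546, chr12:53500921-53506431), the double-stranded RNA-binding partner of Dicer that helps to load the duplex into Argonaute, was the best counted of the genes, with 958 to 1603 reads per library. It was at 95.2, 112, 103 and 97.8 CPM in Input Ctrl and at 84.2, 74.3, 79.2 and 79.3 CPM in Input siRNAG5. Every siRNAG5 library was below every Ctrl library. The log2 FC was -0.35 (SE 0.071, edgeR adjusted p = 0.00024), short of the fold threshold, and the adjusted p stayed under 0.05 in all 15 alternative fits, between 1.5e-05 and 0.045.

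AGO2 (ENSG00000123908), the Argonaute that cleaves its targets, was at 11.9, 10.5, 11.9 and 11.3 CPM in Input Ctrl and at 7.58, 9.59, 8.51 and 9.83 CPM in Input siRNAG5, again without overlap. Its log2 FC was -0.34 (SE 0.12, edgeR adjusted p = 0.024). DGCR8 (ENSG00000128191, chr22:20080221-20111877), the RNA-binding subunit of the Microprocessor, was at 7.65, 6.06, 7.55 and 6.91 CPM in Input Ctrl and at 5.12, 5.23, 5.57 and 5.73 CPM in Input siRNAG5, with all siRNAG5 libraries below. Its log2 FC was -0.36 (SE 0.14, edgeR adjusted p = 0.041). Both adjusted p-values depended on the fit: without the liver-carrying Ctrl libraries they were 0.13 for AGO2 and 0.19 for DGCR8 (edgeR), and in the fit of all 16 libraries 0.084 and 0.26. Non-overlap of this kind was found in 34.2% of all genes tested in Input, and in 4 of these 10.

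The other 6 genes did not pass in Input. DROSHA (chr5:31400494-31532196), the Microprocessor nuclease, had 23.4 to 24.7 CPM in Ctrl and 22.8 to 31.5 CPM in siRNAG5, with a log2 FC of 0.23 (SE 0.095, edgeR adjusted p = 0.063). The Argonaute genes AGO1 (log2 FC -0.03, SE 0.17) and AGO3 (-0.25, SE 0.13) lie next to AGO4 on the chromosome, and their libraries overlapped between the groups. AGO3 was at -0.43 (edgeR adjusted p = 0.041) without the liver-carrying Ctrl libraries, and at -0.13 (adjusted p = 0.53) without Ctrl replicate 2. DROSHA was at 0.31 (edgeR adjusted p = 0.0035) without siRNAG5 replicate 1. DICER1 (chr14:95086228-95158010), the cytoplasmic nuclease, had a log2 FC of -0.10 (SE 0.18), and the scaffolds TNRC6A and TNRC6B had 0.11 (SE 0.26) and -0.23 (SE 0.17). AGO1, DICER1, TNRC6A and TNRC6B had only 10 to 67 reads per Ctrl library and SE of 0.17 to 0.26, against the 0.071 of TARBP2. Small changes in these 4 genes were thus not detectable at this depth.

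**Figure D3:**
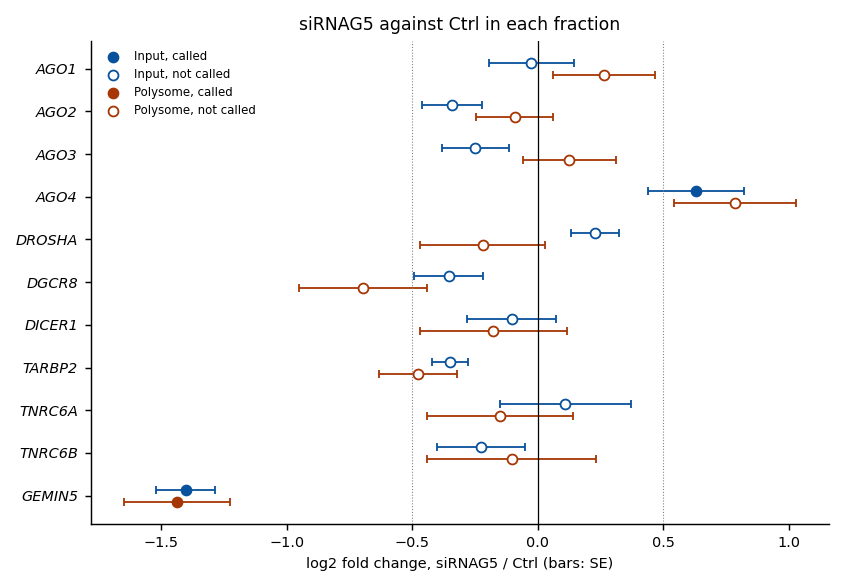
Log2 fold change of siRNAG5 against Ctrl in Input (blue) and Polysome (brown) for the 10 genes and GEMIN5; bars are SE, dotted lines the fold threshold of 0.5, and filled points passed both thresholds. AGO4 is filled in Input (0.63) and GEMIN5 in both fractions (-1.40 and -1.44), and no RNA interference gene is filled in Polysome.

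In Polysome, which samples mRNAs under translation, edgeR called 0 of the 10 genes, beside 7.95% of the 14420 genes tested in either direction. At an unadjusted p under 0.05, 3 of the 10 passed (AGO4, DGCR8 and TARBP2), against 27.7% of all genes, and DESeq2 called those same 3 with adjusted p-values of 0.026, 0.044 and 0.035, in a fit that called 13.5% of all genes. The direction of each was that seen in Input. The median log2 FC was -0.13 for the 10 genes and 0.03 over all.

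AGO4 was at 3.49, 2.06, 4.85 and 3.14 CPM in Polysome Ctrl and at 5.73, 5.96, 6.30 and 4.79 CPM in Polysome siRNAG5. The groups overlapped only through Ctrl replicate 3 and siRNAG5 replicate 4. The log2 FC was 0.78 (SE 0.24, edgeR adjusted p = 0.065). TARBP2 was at 90.2, 98.3, 75.1 and 79.9 CPM in Polysome Ctrl and at 62.4, 53.0, 50.9 and 73.8 CPM in Polysome siRNAG5, every siRNAG5 library below every Ctrl library. It was the only gene of the 10 without overlap, which held for 18.3% of all genes tested. Its log2 FC was -0.48 (SE 0.16, edgeR adjusted p = 0.076).

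DGCR8 was at 4.66, 9.40, 9.81 and 10.5 CPM in Polysome Ctrl and at 4.09, 5.92, 6.42 and 4.05 CPM in Polysome siRNAG5. Ctrl replicate 1 lay among the siRNAG5 values. The log2 FC was -0.70 (SE 0.26, edgeR adjusted p = 0.11).

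These 3 genes were sensitive to single libraries. The low value of DGCR8 in Ctrl replicate 1 and the values of siRNAG5 replicates 1 and 4 belong to the libraries that lay apart on the second principal component, and without these 3 libraries edgeR called AGO4 (log2 FC 0.90, adjusted p = 0.032), DGCR8 (-0.63, 0.022) and TARBP2 (-0.65, 0.012). That fit called 21.2% of all 14717 genes tested, more than the 7.95% with all libraries. Leaving out Ctrl replicate 1 alone gave DGCR8 a log2 FC of -0.89 (edgeR adjusted p = 0.033), leaving out Ctrl replicate 3 gave AGO4 1.02 (0.036), and leaving out siRNAG5 replicate 4 gave TARBP2 -0.58 (0.041), each then the only one called.

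For 5 of the 10 genes, the 3 Polysome libraries apart were lower than all of the other 5, whatever their treatment, which held for 13.7% of the 14420 genes. DROSHA was at 19.6 to 22.5 CPM in the 3 and 31.3 to 42.0 CPM in the others, DGCR8 at 4.05 to 4.66 and 5.92 to 10.5, and DICER1 at 2.95 to 5.06 and 5.69 to 9.27. TNRC6A was at 3.66 to 4.60 and 5.57 to 8.85 CPM, and TNRC6B at 2.49 to 4.08 and 4.80 to 8.33 CPM. Among the Argonaute genes and TARBP2 the ranges overlapped, as for AGO1 at 9.15 to 16.6 and 8.44 to 13.4 CPM. This split crossed the treatments and had no label, and its part in the Polysome results was not tested beyond leaving the libraries out. The share of reads with several alignments also differed between fractions, at 4.88 to 6.04% in Input and 21.2 to 42.4% in Polysome.

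Whether silencing changed the 2 fractions differently was tested as the change in Polysome minus that in Input. None of the 10 genes was called by edgeR, with 0 at an unadjusted p under 0.05 and 0 by DESeq2. Among all 14958 genes tested 0% were called by edgeR, while 7.28% had an unadjusted p under 0.05 and DESeq2 called 29. The count over all genes depended on the fit: edgeR called 659 lower and 106 higher without the Polysome libraries apart, and 483 and 92 with 1 surrogate variable. The estimates for the 4 genes with an adjusted p under 0.05 in Input were 0.12 (SE 0.30) for AGO4, -0.15 (SE 0.17) for TARBP2, 0.22 (SE 0.19) for AGO2 and -0.37 (SE 0.30) for DGCR8. DROSHA had the estimate farthest from 0, at -0.48 (SE 0.29, edgeR adjusted p = 0.77), and it was the only one of the 10 called when 1 surrogate variable entered the fit (-0.82, adjusted p = 0.0023). The changes in the 2 fractions were thus not shown to differ, nor to be alike, since the SE of the differences were 0.17 to 0.45.

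The levels in Polysome were next compared with those in Input within each treatment. In Ctrl, 5 of the 10 genes were called higher in Polysome than in Input (TNRC6A, AGO1, DICER1, AGO2 and DROSHA) and 0 lower, beside 20.8% of the 13666 genes tested called higher and 18.8% lower. By edgeR 0 had an unadjusted p under 0.05 on the lower side, and DESeq2 called the same 5 higher and 0 lower. In siRNAG5, 4 were called higher (AGO1, TNRC6A, AGO2 and AGO4) and 0 lower by both edgeR and DESeq2, beside 23.9% and 21.2% of 14795 genes, and 1 (TARBP2) had an unadjusted p under 0.05 on the lower side. The median log2 ratio of the 10 was 0.53 in Ctrl and 0.60 in siRNAG5, against -0.03 and -0.04 over all genes tested.

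AGO1 (ENSG00000092847), an Argonaute that acts with TNRC6 scaffolds, was at 3.50 to 4.26 CPM in Input Ctrl and at 9.15, 8.44, 13.4 and 13.3 CPM in Polysome Ctrl. In siRNAG5 it was at 3.35 to 4.48 CPM in Input and at 16.6, 12.3, 12.7 and 9.99 CPM in Polysome. Every Polysome library was above every Input library in both treatments. Such separation was found for 3 of the 10 genes in Ctrl and 5 in siRNAG5, beside 44.3% and 50.4% of all genes tested. The log2 ratio was 1.52 (SE 0.19, edgeR adjusted p = 9.8e-06) in Ctrl and 1.85 (SE 0.18, edgeR adjusted p = 8.7e-06) in siRNAG5, and it was called in all 16 and 15 alternative fits.

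TNRC6A (ENSG00000090905), the scaffold that links Argonaute to deadenylation, was at 0.994, 3.22, 2.67 and 1.61 CPM in Input Ctrl and at 3.66, 7.07, 7.92 and 7.62 CPM in Polysome Ctrl. In siRNAG5 it was at 1.94 to 3.02 CPM in Input and at 4.60, 5.57, 8.85 and 3.87 CPM in Polysome. Again there was no overlap in either treatment. The log2 ratio was 1.61 (SE 0.30, edgeR adjusted p = 0.00040) in Ctrl and 1.38 (SE 0.27, edgeR adjusted p = 0.0012) in siRNAG5, called in every alternative. Its paralogue TNRC6B, of which 59.6% of aligned coding bases were identical, had lower ratios of 0.46 (SE 0.22) and 0.63 (SE 0.32) that were not called, and the difference between the paralogues was not tested.

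AGO2 was higher in Polysome in both treatments, at 10.5 to 11.9 CPM in Input and 14.7 to 21.2 CPM in Polysome in Ctrl, and at 7.58 to 9.83 and 13.9 to 15.6 CPM in siRNAG5, without overlap. Its log2 ratios were 0.53 (SE 0.15) and 0.83 (SE 0.13). AGO4 had log2 ratios of 0.61 (SE 0.26, edgeR adjusted p = 0.061) in Ctrl and 0.80 (SE 0.17, edgeR adjusted p = 0.0019) in siRNAG5, so that only the latter was called. AGO3, by contrast, had -0.03 (SE 0.17) in Ctrl and 0.39 (SE 0.16, edgeR adjusted p = 0.059) in siRNAG5.

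Among the processing enzymes, DICER1 had log2 ratios of 0.60 (SE 0.23) in Ctrl and 0.56 (SE 0.27) in siRNAG5, and DROSHA 0.52 (SE 0.16) and 0.11 (SE 0.22), with the call made in Ctrl alone and the libraries overlapping in both treatments. DGCR8 had 0.31 (SE 0.21) and 0.01 (SE 0.19). With the TMM factors, TARBP2 was the only gene of the 10 on the Input side in both treatments. Its log2 ratio was -0.23 (SE 0.12) in Ctrl and -0.32 (SE 0.12, edgeR adjusted p = 0.043) in siRNAG5, short of the fold threshold. In siRNAG5 its Polysome libraries were all below its Input libraries. This direction depended on the TMM factors. Without them, its mean level per kb in Ctrl was 18.9 in Input and 23.1 in Polysome. In siRNAG5 it was then higher in Polysome as well. Of the calls in Ctrl, DICER1, AGO2 and DROSHA were lost without the Input Ctrl libraries with liver reads (edgeR adjusted p = 0.19, 0.071 and 0.11), where the log2 ratios were 0.56, 0.54 and 0.51. Without the Polysome libraries apart (replicate 1 in Ctrl, replicates 1 and 4 in siRNAG5), 7 genes were called higher in Ctrl and 8 in siRNAG5, beside 21.9% and 29.7% of all genes, and in siRNAG5 AGO3 (0.66), DICER1 (0.98), DROSHA (0.55) and TNRC6B (1.17) were added. Single libraries moved these counts: in Ctrl 3 genes were called without Input replicate 2, 3 without Polysome replicate 3 and 2 without Polysome replicate 4, and in siRNAG5 7 were called without Polysome replicate 4.

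**Figure D4:**
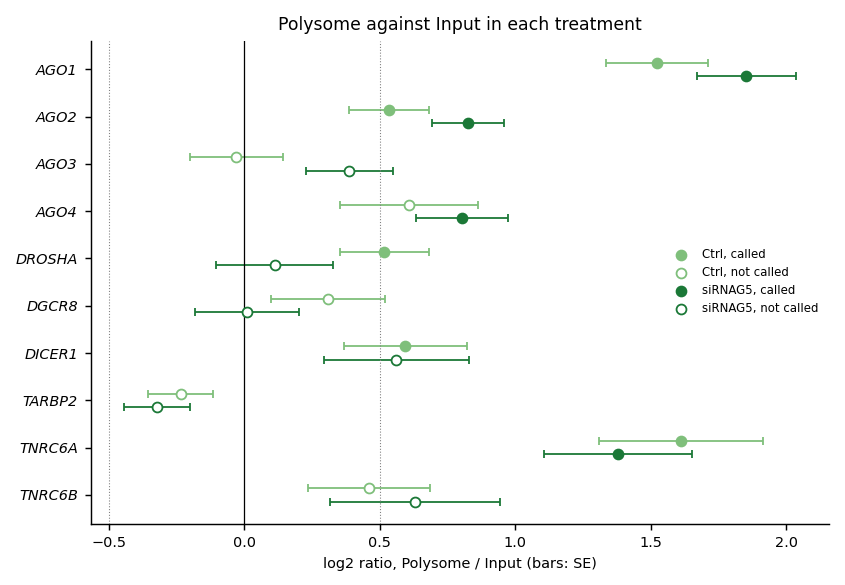
Log2 ratio of Polysome over Input for the 10 genes in Ctrl (light green) and siRNAG5 (dark green), with SE bars, dotted lines at 0.5 on either side of 0 and filled points for genes past both thresholds. AGO1 (1.52 and 1.85) and TNRC6A (1.61 and 1.38) lie farthest to the right, and TARBP2 (-0.23 and -0.32) lies left of 0.

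Some exons of these genes are shared with other annotated genes, and although the kit marks strand, the strand setting of the counting is not given in the sources used here. The lncRNA ENSG00000270175, antisense to 541 bases or 13.2% of the merged exons of TARBP2, had 34 to 112 reads per library and a log2 FC of 0.02 (SE 0.18) in Input. DICER1-AS1, which shares 80 bases with DICER1 on the opposite strand and was looked at for this reason, was at 7.36, 4.34, 4.62 and 6.82 CPM in Input Ctrl and at 13.0, 12.7, 10.4 and 11.1 CPM in Input siRNAG5. It rose without overlap by a log2 FC of 1.06 (SE 0.15, edgeR adjusted p = 1.3e-06), whereas DICER1 did not pass. In Polysome its log2 FC was 0.65 (SE 0.26, edgeR adjusted p = 0.14). TRMT2A, which meets DGCR8 over 3 bases, was lower in Polysome siRNAG5 (log2 FC -0.43, SE 0.12, edgeR adjusted p = 0.048).

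The genes whose level over the 16 libraries was most like that of AGO4 were ADGRL1, an adhesion receptor, and PHC1, a Polycomb protein, with root mean square differences of 0.16 and 0.20 in gene-centred log2 CPM, against a median of 0.67 over 14957 genes. PHC1 had a log2 FC of 0.62 (SE 0.17, edgeR adjusted p = 0.0045) in Input and 0.77 (SE 0.20, adjusted p = 0.040) in Polysome. ADGRL1 had 0.46 (SE 0.15, edgeR adjusted p = 0.015) and 0.70 (SE 0.22, adjusted p = 0.063). Both genes were chosen by their likeness to AGO4 in these same libraries, so fold changes near those of AGO4 followed from the choice.

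The genes around the core were taken in 5 lists, of which the 4 PIWI genes, the germline branch of the Argonaute family, were not tested, with at most 7 reads in any library. Among 12 tested genes of miRNA processing and export in Input, 1 was called, beside 16.5% of all genes, and 6 had an unadjusted p under 0.05, beside 45.3%, with a median log2 FC of 0.09. The gene called, SRRT (ARS2), is a cap-binding complex partner that takes part in primary miRNA processing. It was lower in siRNAG5, at 92.1 to 110 CPM in Ctrl and 60.5 to 70.8 CPM in siRNAG5, a log2 FC of -0.62 (SE 0.074, edgeR adjusted p = 1.3e-07).

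Among 14 genes of Argonaute loading and cofactors, 3 were called in Input, all higher (10.5% of all genes), and 9 had an unadjusted p under 0.05 (45.3% of all genes), with a median of 0.02. They were AJUBA (log2 FC 1.03, SE 0.20) and WTIP (1.01, SE 0.19), LIM-domain proteins of one family that associate with Argonaute, and MOV10 (0.67, SE 0.090), an RNA helicase. In all 3 the siRNAG5 libraries were above the Ctrl libraries. MOV10, for example, was at 31.6 to 39.9 CPM in Ctrl and at 49.4 to 63.6 CPM in siRNAG5, while AJUBA had only 17 to 22 reads per Ctrl library. LIMD1, of the same family as AJUBA and WTIP, was not called in Input (0.04, SE 0.20) or in Polysome (-0.16, SE 0.25). Of 22 genes of deadenylation and decapping, 1 was called, higher, the deadenylase subunit PAN2 (0.65, SE 0.13), and 10 had an unadjusted p under 0.05, again beside 45.3% of all genes, with a median of 0.03. Of 6 tested noncoding hosts of miRNAs, DLEU2, host of miR-15a and miR-16-1, was lower (-0.56, SE 0.17) and MIR210HG was higher (0.65, SE 0.21) with overlapping libraries.

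In Polysome, 4 of the 53 genes of these lists that were tested were called, all higher, beside 7.95% of all genes called in either direction, so the count was near the background. AJUBA (0.87, SE 0.19) and WTIP (0.87, SE 0.24) were called in this fraction too, with LIN28B (0.90, SE 0.19), the RNA-binding protein that blocks let-7 maturation and one of the HEK293 markers, and CNOT6L (0.78, SE 0.19), a deadenylase of the CCR4-NOT complex. LIN28B was at 16.4 to 31.2 CPM in Ctrl and 39.5 to 54.9 CPM in siRNAG5. In Input, it was at 4.35 to 7.40 and 5.92 to 7.91 CPM. Its change in Polysome minus that in Input was 0.71 (SE 0.26, edgeR adjusted p = 0.53) and was not called.

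**Figure D5:**
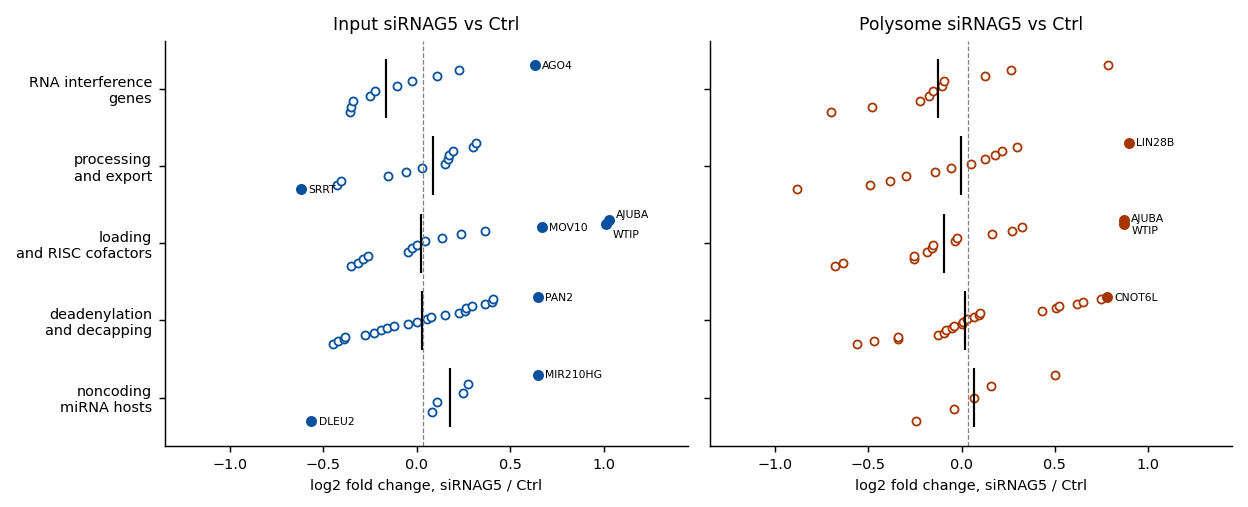
Log2 fold change of siRNAG5 against Ctrl for the 10 RNA interference genes and 4 lists of pathway genes, in Input (left) and Polysome (right). Each point is a gene, filled and named where it passed both thresholds, black bars are list medians and the dashed line is the median of all genes tested (0.04 and 0.03).

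Between the fractions, 19 of the 54 pathway genes tested were called higher and 15 lower in Polysome than in Input in Ctrl, and 19 and 16 in siRNAG5, with medians of 0.22 and 0.15. Over all genes tested, 20.8% were higher and 18.8% lower in Ctrl, and 23.9% and 21.2% in siRNAG5. In Ctrl the deadenylation and decapping list had 9 genes higher and 3 lower, among them CNOT6L (log2 ratio 2.43, SE 0.22) and the decapping activator DCP1A (2.10, SE 0.30), and on the other side the decapping scaffold EDC4 (-1.89, SE 0.25). PAN3, the partner of the deadenylase PAN2, was higher in Polysome (1.85, SE 0.23). In the loading list, LIMD1 (1.98, SE 0.25) and AJUBA (1.96, SE 0.22) were higher, and ZSWIM8 (-1.52, SE 0.23), which directs the decay of Argonaute, and MOV10 (-1.46, SE 0.16) were lower. In the processing list, LIN28B (2.05, SE 0.20) and the editing enzyme ADAR (1.96, SE 0.22) were higher, while the helicase DDX5 (-1.37, SE 0.16) and the exporter of hairpin precursors XPO5 (-1.08, SE 0.14) were lower. Of the 6 noncoding hosts tested, 3 were called, all lower. MIR503HG was at -4.09 (SE 0.56), on only 0 to 3 reads per Polysome Ctrl library and 15 to 22 per Input Ctrl library.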

How the data were processed

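Reads of 16 polyadenylated, stranded HEK293 libraries were aligned by the authors to GRCh38 with STAR 2.5.3a and counted per gene with QoRTs, and the deposited values are raw read counts, without normalization. Reads on several places (4.88 to 42.4%), on more than 1 gene (4.14 to 7.41%) or on no gene (0.667 to 1.33%) were listed apart and left out here. Of 58302 identifiers, 57532 were named from GENCODE v44.

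Groups were taken from the sample labels, with 4 samples per group that the methods call independent. The members and lists were chosen with earlier results of these data known. Counts were fitted over all genes with edgeR 4.0.16 (filterByExpr, TMM, quasi-likelihood test, Benjamini-Hochberg), each comparison on its own libraries, and a gene was called at an adjusted p under 0.05 and an absolute log2 FC above 0.5. Genes beyond the 10 were named by list if called, at most 4 per list and comparison by absolute log2 FC, and the most alike of AGO4 by root mean square difference. DICER1-AS1 and TRMT2A were named after their values were seen, as was LIMD1 for siRNAG5 against Ctrl. CPM used TMM factors over the 16 libraries. Alternatives were DESeq2 1.42.0, RLE factors, no filter, a replicate block, 1 surrogate variable (sva 3.50.0), 1 fit of all libraries and each library left out. Added after seeing the data were a block by culture and fits without the libraries with liver reads or without those apart. Scripts were tested on simulated counts. Proteins and small RNAs were not analysed here.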

Additional observations from a re-analysis of the deposited data

Results flagged for a closer look

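In 2 of 44 groups of 4 libraries, over the 10 genes and GEMIN5, a library lay outside the others by Dixon's test, and chance flags about 1 in 20 groups. AGO2 was at 21.2 CPM in Polysome Ctrl replicate 4 and at 14.7 to 14.8 CPM in the other 3. Without that library, AGO2 had a log2 FC of 0.04 for siRNAG5 against Ctrl in Polysome, in place of -0.09. TNRC6B was at 5.51 CPM in Input Ctrl replicate 3, which carries liver reads, and at 3.89 to 3.98 CPM in the other 3. Without it, the log2 FC of TNRC6B in Input was -0.09, in place of -0.23, and neither value passed the test.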

How the results depend on the processing

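Low counts limited AGO1, DICER1, TNRC6A, TNRC6B and AGO4, with 10 to 90 reads per Input library, where small changes could not be seen. The values below are numbers of the 10 genes called and then log2 values that changed sign, and the cause of a change was not tested. In Input, 1 gene was called as reported, 4 without the fold threshold, 0 by edgeR when all 16 libraries shared a fit (3 at an unadjusted p under 0.05; DESeq2 called 1) and 1 to 1 with each library left out in turn. In Polysome, 0 were called as reported, 2 with unadjusted p and the fold threshold, 3 by DESeq2, 1 without the filter on low counts, 2 with 1 surrogate variable, 3 when all libraries shared a fit, 3 without the libraries apart and 0 to 1 with each library left out. For the difference between the fractions, 1 was called with the surrogate variable and 0 to 0 with each library left out. Over all genes, that difference called 0 as reported, 659 lower and 106 higher without the libraries apart and 483 and 92 with the surrogate variable. For Polysome against Input, 5 were called in Ctrl as reported, 2 without the liver-carrying Input libraries and 2 to 7 with each library left out, and in siRNAG5 4 were called, 8 without the libraries apart and 4 to 7 with each library left out. The ratio of TARBP2 to DROSHA per length was 12.3 by the longest transcript and 8.02 as reported. Levels compared between groups also depended on the TMM factors. Without them, the mean level of AGO2 per kb in Polysome was 1.15 in Ctrl and 1.37 in siRNAG5, in place of 1.03 and 0.938. The mean level of TARBP2 per kb was then higher in Polysome than in Input in both treatments, the reverse of the order reported. Over all genes in Polysome, 577 were called lower and 569 higher as reported, 1788 and 1327 without the libraries apart, 1427 and 1572 with the surrogate variable, 1520 and 1077 when all libraries shared a fit, 1101 and 840 by DESeq2, 941 and 825 without the filter, and 113 and 76 without Ctrl replicate 2. When all libraries shared a fit, the median log2 ratio of Polysome to Input over all genes was -0.12 in siRNAG5, in place of -0.04.

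Signs changed for genes that were not called. In Polysome without the libraries apart, DICER1 was at 0.0136 and TNRC6B at 0.23. For the difference, AGO4 was at -0.0191 and TNRC6B at -0.35 with the surrogate variable, DICER1 at 0.0882 without the libraries apart and TNRC6B at -0.0495 without the liver-carrying libraries. For Polysome against Input, AGO3 in Ctrl was at 0.005 without the filter. In siRNAG5, DROSHA was at -0.0455 with the surrogate variable, and DGCR8 at -0.10 with it and at -0.075 when all libraries shared a fit. With each library left out in turn, log2 FC in Input ran from -0.13 to 0.0287 for AGO1, -0.19 to 0.0135 for DICER1 and -0.12 to 0.40 for TNRC6A. In Polysome they ran from -0.14 to 0.0369 for AGO2, -0.33 to 0.0375 for DICER1, -0.43 to 0.0005 for TNRC6A and -0.34 to 0.13 for TNRC6B. The difference ran from -0.0597 to 0.37 for AGO4, -0.25 to 0.12 for DICER1 and -0.14 to 0.32 for TNRC6B. Polysome against Input ran from -0.13 to 0.10 for AGO3 in Ctrl, and from -0.0930 to 0.26 for DROSHA and -0.12 to 0.14 for DGCR8 in siRNAG5.

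Deviations of same-numbered libraries correlated at -0.03 to 0.07 between the Input groups and -0.53 to 0.48 between the Polysome groups. They correlated at -0.07 to 0.19 between the Ctrl groups and -0.21 to 0.22 between the siRNAG5 groups. Between the fractions, some same-numbered libraries correlated more than any differently numbered ones, and others did not. The paper describes Input and Polysome RNA as taken from each lysate, so these libraries may be paired by culture. Such weak correlations cannot show whether the replicate numbers give that pairing, and the main fits did not use it. With the replicate block, 1 gene was called in Input, 0 in Polysome, 0 for the difference (also with a block by culture), 4 for Polysome against Input in Ctrl, where DROSHA was lost, and 4 in siRNAG5, where DGCR8 was at -0.0172.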
